A study of Homo sapiens with 56 samples.

Results

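MJ, a cutaneous T-cell lymphoma (CTCL) line, was compared at day 4 with and without cobomarsen (MRG-106), an oligonucleotide made to inhibit miR-155. The comparison holds 8 of the 56 arrays of the series, chosen by their sample labels, with 4 arrays of untreated MJ cells and 4 arrays of MJ cells given cobomarsen. The other arrays come from MJ at day 8 and from HuT102, MyLa and HuT78, further CTCL lines. The series names day 4 as the time for direct targets of the inhibitor. Cells were seeded in plates, the oligonucleotide was added to the medium, and biotin-labelled cRNA made from total RNA was hybridized to Affymetrix arrays. The dose is not given in the sources used here. MJ is an established line that carries the virus HTLV-1, so both groups share that background. The control wells got no oligonucleotide, so an effect of oligonucleotides in general and one of blocking miR-155 cannot be told apart. Nothing in the labels states whether the arrays of a group came from separate cultures. The limma p-values therefore measure the spread between arrays within groups, pooled over all 56 arrays, which may be technical.

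MicroRNAs are short RNAs that guide Argonaute proteins to messenger RNAs through a seed near their 5′ end, and their targets are usually destabilised or translated less. When a microRNA is blocked, its direct targets tend to rise, and genes further downstream can move either way. miR-155 is processed from a host transcript, MIR155HG, that is induced when lymphocytes are activated, and it is abundant in many lymphomas. In T cells it is known for targets that restrain cytokine and kinase signalling, such as the phosphatase gene INPP5D and the suppressor SOCS1. The guide strand that cobomarsen is directed against is shown because each target is recognised through it. Capitals mark its seed, bases 2 to 8, at chr21:25573983-25574006 on the + strand (RefSeq, GRCh38.p14).
hsa-miR-155-5p: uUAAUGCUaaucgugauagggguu

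Values are MAS5 signals, the array's brightness for a probe set, which the authors had scaled to a common mean. One probe set was taken per gene. The 11985 genes tested were those whose mean log2(signal + 16) over the 8 arrays reached that of the median of all signals, 74.0. Throughout, a value after ± is the SD of 4 arrays for a signal and the standard error for a log2 change, and log2 changes are those of signal + 16, cobomarsen minus untreated. Where a group mean lies under 74.0, near background, only signals and the adjusted p are given. A gene is called, and is said to have risen or fallen, at a limma adjusted p under 0.05 over all genes tested.

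The MJ arrays carried markers of a CD4+ T cell. All 9 T cell markers with a probe set were at or over the median signal, whereas CD8A and CD8B, which mark cytotoxic T cells, were both under it. CD14, LYZ, CD163 and MARCO, markers of monocytes and macrophages, were under the median, leaving CSF1R as the 1 of 5 over it. Of 6 fibroblast markers 4 were over the median, COL1A1 and COL3A1 by far. Over the median were also MS4A1, CD79A and PAX5 of 5 B cell markers, NCAM1 and NCR1 of 5 natural killer markers, KRT10 and DSG3 of 5 keratinocyte markers, and HBB, the 1 erythroid marker with a probe set. KRT10 read 2402 to 2862 untreated and 1833 to 2711 with cobomarsen, and the B cell marker CD79B 7.23 to 41.5 and 73.7 to 106. The summed signal of the T cell markers was 47109 to 53400 in untreated and 61046 to 66652 in cobomarsen arrays, and that of the fibroblast markers was 3369 to 4199 and 4232 to 4701. Among T cell markers IL2RA and CD3D make up most of the rise of the sum, whereas CD2 (6685 to 7536 and 6258 to 6518) and TRBC1 (3828 to 4370 and 2003 to 2284) ran the other way. The sums of the T cell and the fibroblast lists did not overlap between groups, those of the B cell, natural killer, keratinocyte, erythroid, monocyte and CD8 markers did, and their part in the results was not tested. The upper quartile of all signals was 399.6 to 430.02 in untreated and 430.4 to 444.5 in cobomarsen arrays, without overlap, while the median signal and the 3′ to 5′ ratios of GAPDH and ACTB overlapped. Correlations of log2 signals were 0.962 to 0.971 within a group and 0.955 to 0.965 between groups.

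The host transcript of miR-155 fell. Its probe set, which covers both MIR155 and MIR155HG, read 15077, 15079.5, 14187 and 14289 in untreated and 13166, 11143, 11191 and 10496 in cobomarsen arrays. Every cobomarsen array lay under every untreated one. The log2 change was -0.35 ± 0.13 (two-sided exact permutation p = 0.0286, the smallest that 4 against 4 arrays allow), and the limma adjusted p over all probe sets was 0.0474. Without any one array the exact p was 0.0571, the smallest then possible. In MJ at day 8 the probe set read 19956 ± 496 untreated and 15311 ± 629 with cobomarsen. At day 4 it read 19475 ± 1188 and 25232 ± 1163 in HuT102, and 23909 ± 1570 and 22332 ± 567 in MyLa. A difference between these comparisons was not tested for it. The probe set measures the precursor's host RNA and not the mature microRNA. In whole-well RNA, fewer cells with a transcript and less transcript per cell cannot be told apart, here and in all that follows.

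Cobomarsen changed 3288 of the 11985 genes tested (27.4%), of which 1580 rose (13.2%) and 1708 fell (14.3%). Most changes were small. The median called rise was 0.55 and the median called fall -0.39 on the log2 scale. A change of at least 2-fold was called for 361 genes (3.01%), of which 239 rose and 122 fell. The median log2 change of all genes tested was 0.0022. The arrays of the 2 groups did not overlap for 3768 genes (31.4%), and 2813 genes were both called and without overlap. Of 1898 called genes with another probe set that was tested, 993 had another one called the same way and 39 one called the opposite way. Among probe sets with several gene symbols 23.5% of 1109 were called, and among those with none 12.6% of 3531.

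**Figure D1:**
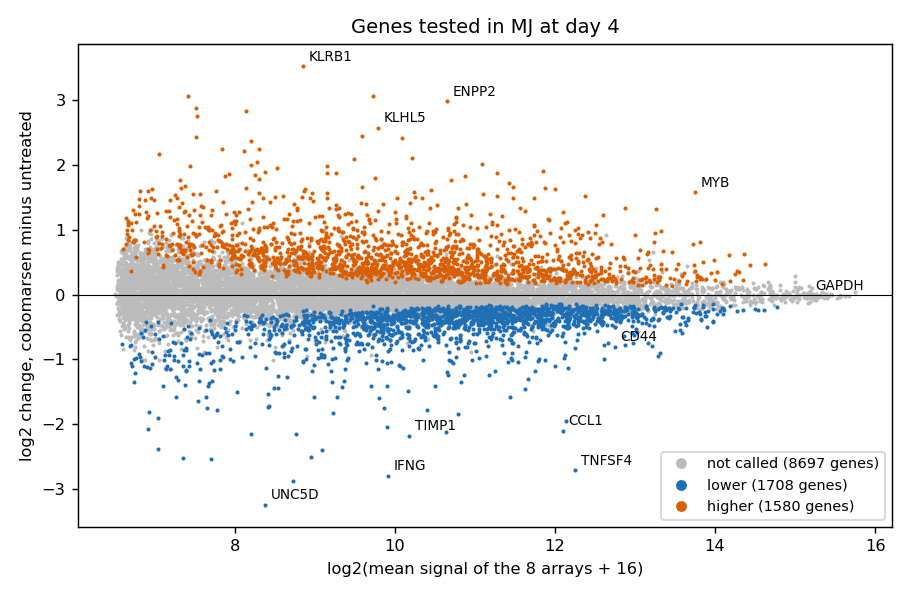
Each point is 1 of the 11985 genes tested in MJ at day 4, with the log2 of its mean signal (+ 16) over the 8 arrays on the horizontal axis and its log2 change on the vertical axis. Orange marks the 1580 genes called higher and blue the 1708 called lower; the largest changes go both ways, from TNFSF4 and IFNG below to KLRB1 and ENPP2 above, and GAPDH lies near 0.

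Genes listed as miR-155 targets mostly rose. Of 59 listed targets 55 had a probe set and 50 were tested, and of these 29 rose and 3 fell (58.0% and 6.00%, against 13.2% and 14.3% of all genes tested). Their median log2 change was 0.55, against 0.0022 over all genes. The list was compiled with earlier results of these data known, so its count is not independent evidence. The same holds for the counts of every other gene list below. The signal of KLHL5, a Kelch family gene, was 204, 216, 276 and 262 in untreated and 1263, 1421, 1635 and 1671 in cobomarsen arrays. All 4 cobomarsen arrays lay far above the untreated ones (5.92-fold, limma adjusted p = 2.53e-21, log2 change 2.57 ± 0.14).

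Other targets with large rises have varied roles in the cell. PICALM, which helps to assemble clathrin coats, measured 1986, 1619.6, 1737 and 1866 in untreated and 5682, 5593, 5502 and 5877 in cobomarsen arrays, without overlap (3.13-fold, limma adjusted p = 3.06e-18, log2 change 1.65 ± 0.11), and its 4 other tested probe sets were also called higher. SDCBP, or syntenin, a scaffold of exosome formation, rose from 1786 ± 154 to 5023 ± 164 (limma adjusted p = 4.27e-19, log2 change 1.49 ± 0.09). MYO10, a myosin of filopodia, rose from 2725 ± 197 to 7852 ± 651 (limma adjusted p = 7.51e-09, log2 change 1.52 ± 0.19). The calcium-regulated RNA-binding protein gene CARHSP1 gave 1458, 1783, 1602 and 1357 untreated and 5406, 5735, 6065 and 5985 with cobomarsen, and all cobomarsen arrays were again the higher ones (3.73-fold, limma adjusted p = 5.58e-19, log2 change 1.90 ± 0.12). UBQLN1, a shuttle to the proteasome, had a log2 change of 0.95 ± 0.06, and DET1, part of a ubiquitin ligase, one of 1.65 ± 0.17.

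Several more of the listed targets rose. BACH1, a repressor of heme and redox genes, rose from 259 ± 46.7 to 586 ± 66.2 (limma adjusted p = 6.59e-08, log2 change 1.14 ± 0.16), and RCOR1, a corepressor, from 496 ± 81.7 to 1111 ± 94.7 (limma adjusted p = 7.73e-13, log2 change 1.15 ± 0.10). JARID2, a partner of Polycomb repressive complex 2, had a log2 change of 1.02 ± 0.11, SMAD5, a signal carrier of bone morphogenetic proteins, one of 1.25 ± 0.14, and WEE1, a brake on entry into mitosis, one of 1.08 ± 0.12. INPP5D, the lipid phosphatase SHIP1, measured 1048, 950.1, 986 and 913 untreated and 1259.8, 1378, 1262 and 1366 with cobomarsen (limma adjusted p = 8.97e-05, log2 change 0.43 ± 0.09), and its 2 other tested probe sets were not called. ETS1, a lymphoid transcription factor, rose with a log2 change of 0.47 ± 0.10, RHEB, an activator of mTOR, with 0.88 ± 0.10, TAB2, an adaptor to NF-kB, with 0.70 ± 0.08, and FOXO3, a factor of quiescence, with 0.64 ± 0.07.

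Not every listed target followed. SOCS1, a suppressor of cytokine signalling, had a log2 change of 0.39 ± 0.17 with non-overlapping arrays and was not called (limma adjusted p = 0.0917). CTLA4, the checkpoint receptor, stood at 596 ± 120.0 untreated and 885 ± 44.3 with cobomarsen, and was not called either (limma adjusted p = 0.178). BCL6, a transcriptional repressor of follicular helper cells, fell, with 3406, 4431, 3418 and 3499 in untreated and 2013, 1954, 1753 and 1737 in cobomarsen arrays. No cobomarsen array reached the lowest untreated one (1.96-fold lower, limma adjusted p = 8.77e-06, log2 change -0.97 ± 0.17). IFNGR1, a chain of the interferon gamma receptor, was called slightly lower (limma adjusted p = 0.0229, log2 change -0.23 ± 0.08), a call that was lost without the second cobomarsen or the fourth untreated array (limma adjusted p = 0.094 and 0.116). SMAD2, which carries TGF-beta signals, was called lower on the probe set used, just under the threshold (limma adjusted p = 0.04995, log2 change -0.19 ± 0.08), a call lost without any of 6 arrays (limma adjusted p = 0.0523 to 0.163). Another of its probe sets was called higher, so its direction is uncertain.

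**Figure D2:**
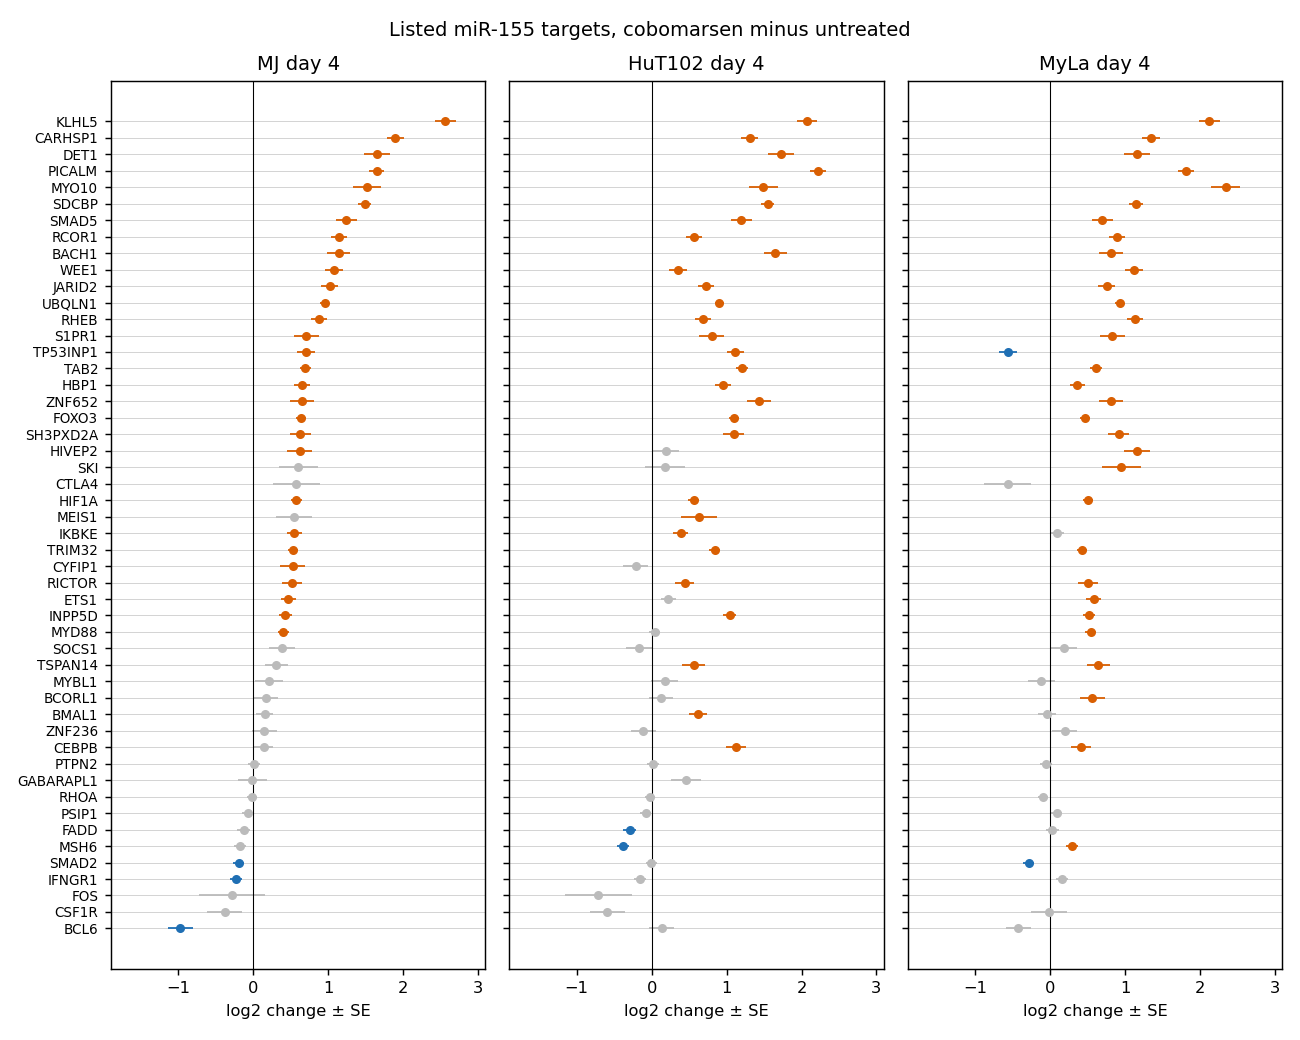
Log2 change with its standard error, cobomarsen minus untreated, for the 50 listed miR-155 targets tested in MJ at day 4 (left) and the same genes in HuT102 and MyLa at day 4, where tested. Orange and blue mark genes called higher and lower and grey those not called. KLHL5, PICALM, CARHSP1 and MYO10 lie far to the right in each panel and BCL6 lies lowest in MJ.

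Part of the listed targets also rose in the other lines at day 4. Of 45 listed targets tested in MJ, HuT102 and MyLa, 23 rose in all 3 lines, against 342 of all 10028 genes tested in the 3. In each line on its own 13.2%, 10.1% and 13.4% of all genes rose. As the list was compiled with earlier results of these data known, this count is not independent evidence. In limma 0 of the 45 targets fell in all 3, also at an unadjusted p under 0.05. KLHL5 had log2 changes of 2.57 ± 0.14 in MJ, 2.07 ± 0.14 in HuT102 and 2.12 ± 0.14 in MyLa. The effect in MJ differed from that in HuT102 for 14 of 53 targets, 5 above and 9 below, and from that in MyLa for 7 of 50, 4 above and 3 below. Over all genes tested for these differences 12.6% and 17.3% were called. PICALM rose more in HuT102, by 2.21 ± 0.11 (difference -0.57 ± 0.15, limma adjusted p = 0.00657). CARHSP1 rose more in MJ than in HuT102, where it changed by 1.31 ± 0.12 (difference 0.59 ± 0.16, limma adjusted p = 0.0106). For INPP5D the rise was larger in HuT102, 1.04 ± 0.09 (difference -0.61 ± 0.12, limma adjusted p = 2.41e-04). TP53INP1, a stress-response gene, rose in MJ by 0.71 ± 0.12 and had a log2 change of -0.57 ± 0.12 in MyLa, where it fell (difference 1.27 ± 0.17, limma adjusted p = 1.01e-07). In limma 0 of the 50 targets tested differed between MJ at day 4 and at day 8, with 7 at an unadjusted p under 0.05, and 1.31% of all genes were called there.

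One of the largest rises was that of KLRB1, which encodes the lectin receptor CD161. Its signal was 38.7, 128, 22.3 and 80.2 in untreated arrays, around background, and 762, 874, 883 and 793 in cobomarsen arrays (limma adjusted p = 9.71e-11). ENPP2 encodes autotaxin, the secreted enzyme that makes lysophosphatidic acid. It read 339, 376, 328 and 350.8 untreated and 2832, 2874, 2767 and 2901 with cobomarsen, and the arrays of each group lay close together (7.86-fold, limma adjusted p = 9.92e-33, log2 change 2.97 ± 0.09). ANTXR2, a receptor for extracellular matrix and anthrax toxin, went from 177, 99.1, 209 and 193 to 1365, 1529, 1475 and 1585 (8.36-fold, limma adjusted p = 4.06e-15, log2 change 3.06 ± 0.24). TSC22D1, a leucine zipper regulator, measured 375, 301, 317 and 326 and 1803, 1731, 1682 and 2075 (5.32-fold, limma adjusted p = 3.20e-26, log2 change 2.41 ± 0.10). Its other tested probe set, dimmer, was not called. In all 4 genes every cobomarsen array exceeded every untreated one.

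Several of the 20 largest rises started from background. LGMN, the lysosomal protease legumain, went from 28.6 ± 18.7 to 306 ± 104 (limma adjusted p = 4.62e-09), and HTR2B, a serotonin receptor, from 55.8 ± 19.7 to 478 ± 49.99 (limma adjusted p = 1.97e-09). GREB1, known as an oestrogen-responsive gene, went from 34.3 ± 16.3 to 200.0 ± 19.0 (limma adjusted p = 5.11e-09), and INHBB, a subunit of activins and inhibins, from 67.0 ± 29.5 to 360.4 ± 34.9 (limma adjusted p = 1.49e-05). Others were expressed before treatment. ID1, an inhibitor of basic helix-loop-helix factors, rose from 434 ± 61.5 to 1914 ± 121 (limma adjusted p = 1.27e-09, log2 change 2.11 ± 0.25), WNT5B, a Wnt ligand, from 261 ± 47.9 to 1149.6 ± 124 (limma adjusted p = 9.86e-11, log2 change 2.08 ± 0.22), and RFK, the riboflavin kinase, from 849.6 ± 78.1 to 3469 ± 357 (limma adjusted p = 2.82e-18, log2 change 2.01 ± 0.13). ID3, a relative of ID1, rose as well (limma adjusted p = 4.63e-08, log2 change 1.58 ± 0.21). MYO1F, a myosin of blood cells, read 8.72, 119, 141 and 124 untreated and 514, 317, 338 and 526 with cobomarsen (limma adjusted p = 1.26e-06, log2 change 2.21 ± 0.35). The groups did not overlap, but 1 untreated array lay far under the other 3.

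**Figure D3:**
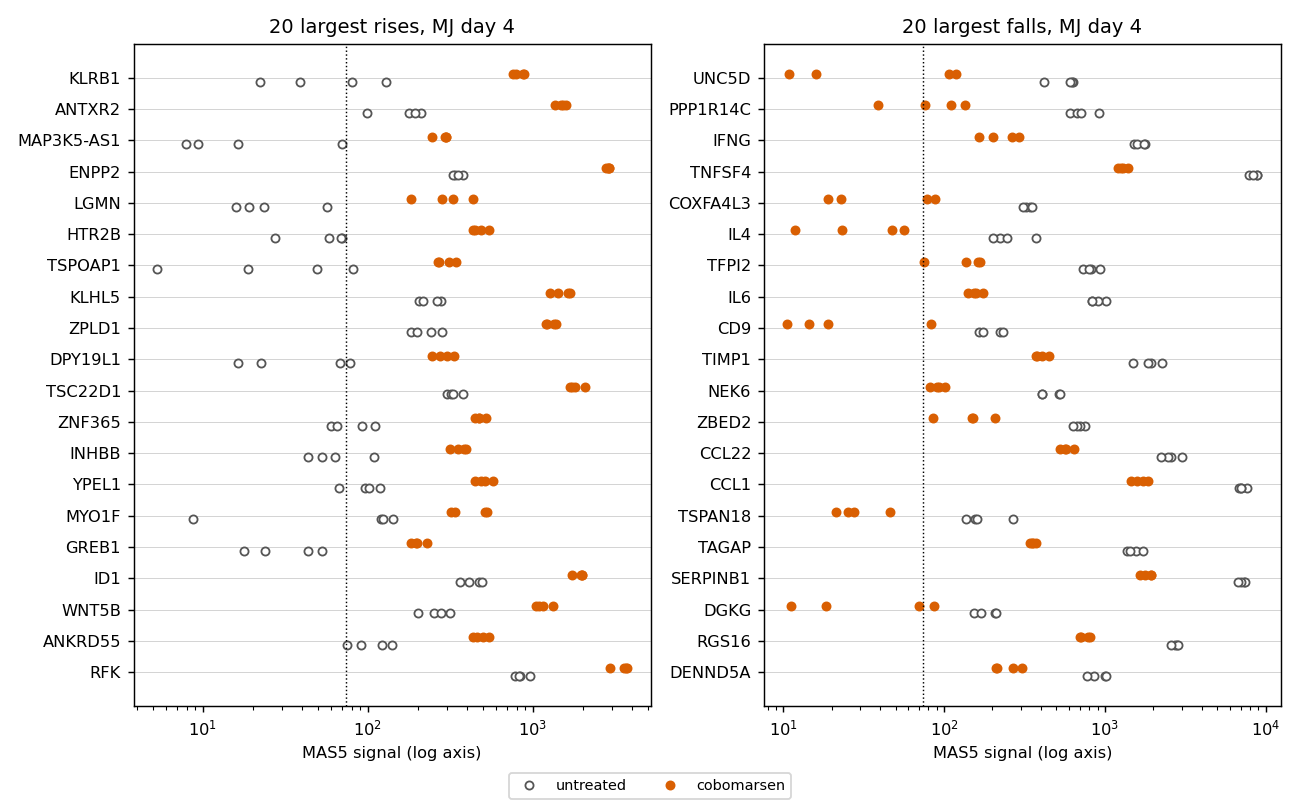
MAS5 signals of the 20 genes with the largest rise and the 20 with the largest fall among called genes whose groups do not overlap, on a log axis, with 4 untreated arrays (open) and 4 cobomarsen arrays (orange) per gene. The dotted line is the median of all signals, 74.0. The untreated means of KLRB1, LGMN and HTR2B lie under that line, though single untreated arrays of KLRB1 lie above it. TNFSF4, CCL1 and SERPINB1 stay well above it after their fall.

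Cytokine genes were among those that fell most. Of 18 helper T cell cytokines tested, 12 fell (66.7%, against 14.3% of all genes), with a median log2 change of -0.94. In limma 0 rose, with 1 higher at an unadjusted p under 0.05. The limit for testing was on the mean of both groups. A gene at background in either group could thus be tested through the other, as IL4 was through its untreated arrays. Fewer of the list fell with a stricter filter, as given under the processing. IFNG, the cytokine of type 1 helper cells, read 1788, 1522, 1583 and 1755 untreated and 203, 166, 264 and 293 with cobomarsen (6.92-fold lower, limma adjusted p = 7.74e-15, log2 change -2.79 ± 0.22). The lowest untreated array stood several-fold over the highest cobomarsen array. IL6, an inflammatory cytokine that signals through STAT3, read 1011, 834, 906 and 828 and 176, 141, 155 and 159, also without overlap (5.24-fold lower, limma adjusted p = 7.64e-13, log2 change -2.39 ± 0.22).

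The cytokines of type 2 helper cells, which are prominent in CTCL, moved the same way. IL4, which drives that programme, read 374, 224, 201 and 246 untreated and 11.9, 56.5, 23.3 and 47.4 with cobomarsen, so that it fell to background (limma adjusted p = 3.15e-07). IL5, the growth factor of eosinophils, read 4499, 3889, 3963 and 4191 and 1414, 1522, 1251 and 1318 (2.99-fold lower, limma adjusted p = 3.39e-11, log2 change -1.58 ± 0.16), and IL13, an epithelial and fibrotic mediator, 3476, 3337, 2810.0 and 3292 and 1407, 1253, 1423 and 1325 (2.37-fold lower, limma adjusted p = 3.37e-09, log2 change -1.24 ± 0.15). The arrays of both groups were apart in each. IL26, a cytokine of the IL10 family, fell from 264 ± 62.5 to 76.7 ± 33.8 (limma adjusted p = 2.71e-07, log2 change -1.64 ± 0.24), and IL3, a growth factor of myeloid cells, from 177 ± 22.0 to 74.1 ± 24.8 (limma adjusted p = 0.00118, log2 change -1.14 ± 0.28). TNF fell from 1451 ± 106 to 664 ± 34.7 (limma adjusted p = 3.22e-14, log2 change -1.11 ± 0.09), CSF1, the macrophage growth factor, from 615 ± 70.1 to 299.9 ± 19.1 (limma adjusted p = 3.84e-06, log2 change -0.99 ± 0.17), and LTA, lymphotoxin alpha, from 10034 ± 867 to 5968 ± 199 (limma adjusted p = 2.54e-10, log2 change -0.74 ± 0.08). IL16, IL32, LTB and OSM were measured too, and of these IL16 fell (limma adjusted p = 0.00105, log2 change -0.89 ± 0.21). IL2, IL10, IL17A and IL21 were not tested, since their mean log2 signal lay under the limit.

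Ligands of the TNF family and chemokines showed some of the largest falls. TNFSF4, or OX40 ligand, a costimulatory ligand that is bright in these cells, read 7855, 8846, 8784 and 8284 in untreated and 1257, 1289, 1389.8 and 1199 in cobomarsen arrays (6.51-fold lower, limma adjusted p = 6.91e-33, log2 change -2.70 ± 0.08). TNFSF14, known as LIGHT, fell from 1675 ± 61.9 to 586 ± 30.4 (limma adjusted p = 1.12e-08, log2 change -1.49 ± 0.19), and TNFSF10, the death ligand TRAIL, rose from 4847 ± 453 to 6202 ± 366 (limma adjusted p = 9.19e-05, log2 change 0.36 ± 0.07). Of 10 ligands tested 4 fell and 1 rose, and so did 4 and 1 of 10 chemokines, where 14.3% of all genes fell and 13.2% rose. CCL22, an attractant of CCR4+ cells, read 2569, 2475, 2998 and 2241 and 526, 569, 572 and 639 (4.35-fold lower, limma adjusted p = 2.92e-08, log2 change -2.12 ± 0.28), and CCL1, an attractant of CCR8+ cells, 7605, 7009, 6803 and 7038 and 1462, 1589, 1845 and 1734 (4.27-fold lower, limma adjusted p = 3.21e-18, log2 change -2.09 ± 0.13). In both genes every cobomarsen array lay under every untreated one. CCL4, an inflammatory chemokine, fell from 2079 ± 306 to 595 ± 68.2 (limma adjusted p = 1.05e-08, log2 change -1.77 ± 0.23). CXCL10, an interferon-induced chemokine, was among the brighter genes and rose from 18663 ± 1231 to 25639 ± 1686 (limma adjusted p = 3.99e-05, log2 change 0.46 ± 0.09). CCL5 stood at 15374 ± 603 and 16425 ± 497 and was not called.

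Receptors for cytokines went both ways. Of 27 tested 7 rose and 10 fell (63.0% called, against 27.4%), with a median log2 change of -0.02. Without the second cobomarsen or the third untreated array 6 fell. The 3 chains of the IL2 receptor did not move together. IL2RA, the alpha chain CD25, read 17297, 17414, 16137 and 15489.7 untreated and 24044, 24965, 28408 and 24512 with cobomarsen (1.53-fold, limma adjusted p = 1.58e-07, log2 change 0.62 ± 0.09), and IL2RG, the common gamma chain, rose from 4704 ± 514 to 6924 ± 298 (limma adjusted p = 2.13e-07, log2 change 0.56 ± 0.08). IL2RB, the beta chain, read 5029.8, 5135, 4508 and 4280.2 and 2634, 2058, 1826 and 1894 (2.26-fold lower, limma adjusted p = 4.70e-08, log2 change -1.18 ± 0.16). In each of the 3 genes the groups were apart.

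Chains of other receptors also moved apart. IL4R fell from 1083 ± 53.1 to 666 ± 54.0 (limma adjusted p = 3.21e-07, log2 change -0.69 ± 0.10), and IL21R from 5266 ± 269 to 3747 ± 317 (limma adjusted p = 4.38e-05, log2 change -0.49 ± 0.09). TGFBR2 and TGFBR1, the receptor kinases for TGF-beta, rose (limma adjusted p = 1.68e-05, log2 change 0.68 ± 0.12, and limma adjusted p = 0.00245, log2 change 0.37 ± 0.10), whereas the coreceptor TGFBR3 fell (limma adjusted p = 3.16e-08, log2 change -0.55 ± 0.07). TNFRSF11A, or RANK, rose from 3270.5 ± 238 to 6679 ± 144 (limma adjusted p = 1.28e-09, log2 change 1.03 ± 0.12), TNFRSF14, a receptor of TNFSF14, fell from 830.0 ± 89.4 to 485 ± 95.8 (limma adjusted p = 2.08e-07, log2 change -0.77 ± 0.11), and TNFRSF9, or 4-1BB, fell from 2731 ± 227 to 1797 ± 98.6 (limma adjusted p = 0.00441, log2 change -0.60 ± 0.17). CCR4 and CCR7, which guide skin and lymph node homing, stood at 3822 ± 489.8 and 4378 ± 459.8 and at 16168 ± 1013 and 16692 ± 958 and were not called. CXCR4, the receptor for CXCL12, rose from 3957 ± 153 to 5853 ± 225 (limma adjusted p = 3.48e-07, log2 change 0.56 ± 0.08). Of 8 chemokine receptors tested 1 rose and 2 fell (12.5% and 25%, against 13.2% and 14.3% of all genes). Their log2 changes ran from -0.90 to 0.56.

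In the JAK-STAT pathway, which links cytokine receptors to transcription, 3 of 22 genes tested rose and 6 fell (13.6% and 27.3%, against 13.2% and 14.3% of all genes), with a median log2 change of 0.15. STAT3 read 5341, 6015, 6079 and 5903 in untreated and 2938, 3154, 2912 and 2858 in cobomarsen arrays, with no overlap (1.96-fold lower, limma adjusted p = 1.30e-12, log2 change -0.97 ± 0.09), and its 3 other tested probe sets were called lower too. The paralogs STAT5A and STAT5B, which both act downstream of IL2, moved in opposite directions. STAT5A fell, with 4496, 4364, 4359 and 4257 and 2495, 2805, 2644 and 2505 (limma adjusted p = 2.27e-08, log2 change -0.74 ± 0.10). STAT5B rose, with 9929.8, 10937, 10101 and 9529.9 and 12905, 13084, 13759 and 13363 (limma adjusted p = 0.00120, log2 change 0.39 ± 0.10), while its 4 other tested probe sets were not called. Among other members of the list, PIM1, a survival kinase, fell from 2591 ± 287 to 1004 ± 116 (limma adjusted p = 5.00e-14, log2 change -1.35 ± 0.11), SOCS3 from 776 ± 89.4 to 458 ± 76.6 (limma adjusted p = 4.07e-04, log2 change -0.75 ± 0.17) and CISH from 2173 ± 138 to 1563 ± 46.9 (limma adjusted p = 0.00245, log2 change -0.47 ± 0.12). JAK1, the kinase shared by many of these receptors, rose by 0.30 ± 0.06.

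In the PI3K and AKT pathway 8 of 23 genes rose and 3 fell (34.8% and 13.0%, against 13.2% and 14.3% of all genes), with a median log2 change of 0.22. PIK3IP1, an inhibitor of PI3K, rose from 400.0 ± 36.6 to 969 ± 144 (limma adjusted p = 1.71e-09, log2 change 1.24 ± 0.15), and PHLPP1, a phosphatase of AKT, from 444 ± 62.3 to 985 ± 92.9 (limma adjusted p = 4.94e-07, log2 change 1.13 ± 0.17). INPP4B, a lipid phosphatase that also opposes the pathway, fell from 929 ± 22.4 to 338 ± 46.8 (limma adjusted p = 2.11e-06, log2 change -1.43 ± 0.23), and its relative INPP4A rose from 542 ± 63.4 to 901 ± 139 (limma adjusted p = 5.88e-06, log2 change 0.71 ± 0.12). PIK3R1, the regulatory subunit p85 alpha, fell from 4493 ± 40.1 to 3086 ± 169.9 (limma adjusted p = 1.79e-07, log2 change -0.54 ± 0.08), although its 2 other tested probe sets were not called. Inhibitors of the pathway therefore stand on both sides.

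Of 17 genes of MAPK signalling and its feedback 7 fell and 2 rose (41.2% and 11.8%, against 14.3% and 13.2% of all genes), and the median log2 change was -0.31. The phosphatase genes DUSP5, DUSP10 and DUSP2 fell from 508 ± 97.1 to 201 ± 13.9 (limma adjusted p = 1.99e-12, log2 change -1.26 ± 0.12), from 1147 ± 160.3 to 562 ± 55.2 (limma adjusted p = 3.85e-12, log2 change -1.003 ± 0.10) and from 13107 ± 1361 to 6808 ± 660.3 (limma adjusted p = 3.10e-09, log2 change -0.94 ± 0.11). SPRED2, an inhibitor of RAS signalling, fell from 803 ± 119.6 to 344 ± 16.7 (limma adjusted p = 6.45e-10, log2 change -1.18 ± 0.13), while DUSP4 rose (limma adjusted p = 0.00138, log2 change 0.36 ± 0.09). Of 17 AP-1 and immediate early genes 8 fell and 1 rose (47.1% lower, against 14.3%), but 3 fell without the fourth cobomarsen array, and 5 without the third cobomarsen or the first or second untreated array. NR4A3, an orphan receptor induced by T cell receptor signals, fell from 1046 ± 144 to 602 ± 159 (limma adjusted p = 2.25e-04, log2 change -0.81 ± 0.17). JUN, a subunit of AP-1, stood at 2023 ± 193 and 1816 ± 529.9 and was not called.

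Transcription factors of T cells went both ways. Of 34 tested 13 rose and 11 fell, or 70.6% against 27.4% of all genes. This list too was chosen with earlier results of these data known, so its share is not independent evidence. The largest fall was that of ZBED2, a zinc finger factor, from 688 ± 47.2 to 149 ± 50.1 (limma adjusted p = 3.27e-11, log2 change -2.15 ± 0.22). TBX21, or T-bet, the factor of type 1 helper cells, read 1421, 1389, 1458 and 1423 untreated and 436, 401, 412 and 397 with cobomarsen (3.36-fold lower, limma adjusted p = 3.28e-07, log2 change -1.75 ± 0.26). GATA3, the factor of type 2 cells, read 10940.3, 11921, 12118 and 11158 and 15335, 15945, 16111 and 15844 (1.37-fold higher, limma adjusted p = 7.38e-05, log2 change 0.46 ± 0.09). In both the groups did not overlap.

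MYB, a factor of haematopoietic progenitors, had, with ID3, the largest rise on this list. It read 7331, 7309.8, 6516 and 6578 untreated and 21074, 20900.5, 20951 and 19793 with cobomarsen, so that the groups were far apart (2.98-fold, limma adjusted p = 9.44e-21, log2 change 1.58 ± 0.09). LEF1, a Wnt effector, rose from 619.9 ± 34.6 to 1681 ± 62.2 (limma adjusted p = 5.78e-07, log2 change 1.42 ± 0.21). In the Ikaros family 3 genes rose, IKZF3 from 2365 ± 207 to 5301 ± 582 (limma adjusted p = 4.67e-07, log2 change 1.16 ± 0.17), IKZF2 or Helios from 1483 ± 246 to 2538 ± 409 (limma adjusted p = 0.00465, log2 change 0.77 ± 0.21) and IKZF1 from 6503 ± 352 to 10512 ± 533 (limma adjusted p = 6.97e-11, log2 change 0.69 ± 0.07), whereas IKZF4, at 616 ± 50.4 and 514 ± 23.4, was not called. PRDM1, or BLIMP1, which represses BCL6, rose from 3239.5 ± 101.9 to 6466 ± 387 (limma adjusted p = 3.72e-12, log2 change 0.99 ± 0.10). NR4A2 fell from 1321 ± 123 to 436 ± 106 (limma adjusted p = 3.10e-09, log2 change -1.59 ± 0.19), GFI1, a repressor, from 278 ± 24.0 to 98.8 ± 11.9 (limma adjusted p = 5.80e-11, log2 change -1.36 ± 0.14), BACH2, a factor of resting T cells, from 603 ± 63.8 to 285 ± 8.60 (limma adjusted p = 9.79e-12, log2 change -1.04 ± 0.10), and TWIST1, overexpressed in Sézary cells, from 1393 ± 110.2 to 868 ± 81.0 (limma adjusted p = 8.50e-06, log2 change -0.67 ± 0.12). FOXP3, the factor of regulatory T cells, stood at 642 ± 96.1 and 697 ± 80.8 and was not called.

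Chains of the T cell receptor complex went both ways. CD3D read 9759.5, 11379.9, 9177 and 9494 untreated and 12966, 13881, 15016 and 13227 with cobomarsen, without overlap (limma adjusted p = 4.37e-05, log2 change 0.47 ± 0.09), and CD3G and CD247, the zeta chain, rose by 0.49 ± 0.12 and 0.35 ± 0.07. TRBC1, a constant region of the beta chain, fell from 4162 ± 254 to 2118 ± 119.6 (limma adjusted p = 7.49e-13, log2 change -0.97 ± 0.09). It is nearly identical to TRBC2, so its probe set may read both. PTPRC, the phosphatase CD45, rose from 475 ± 52.1 to 824 ± 97.1 (limma adjusted p = 2.08e-07, log2 change 0.77 ± 0.11), while FYN, a receptor-proximal kinase, and PTPN6, the phosphatase SHP1, fell by 0.63 and 0.57 on the log2 scale (limma adjusted p = 1.99e-07 and 1.46e-05). Of 22 genes in the list 4 rose and 3 fell (31.8%, near the 27.4% of all genes).

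Costimulatory molecules fell in 5 of 13 cases and rose in 2 (38.5% and 15.4%, against 14.3% and 13.2% of all genes). SLAMF1, a self-ligand receptor, fell from 3663 ± 178 to 1952 ± 147 (limma adjusted p = 1.55e-15, log2 change -0.90 ± 0.07), and CD80, a ligand of CD28 and CTLA4, from 2794 ± 143 to 1692 ± 52.5 (limma adjusted p = 5.88e-08, log2 change -0.72 ± 0.10). CD58, the ligand of CD2, rose from 6797 ± 576 to 10031 ± 313 (limma adjusted p = 1.18e-08, log2 change 0.56 ± 0.07). PRF1, or perforin, fell from 3758 ± 221 to 1863 ± 181 (limma adjusted p = 3.07e-10, log2 change -1.01 ± 0.11), and the granzyme genes GZMA, GZMB, GZMH and GZMK had group means under 74.0 in both groups. Beside KLRB1, CD244, another receptor of natural killer cells, read 8.82, 6.17, 10.98 and 6.82 untreated and 153, 161, 207 and 171 with cobomarsen. The groups were apart, but its mean log2 signal lay under the limit and it was not tested.

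Among adhesion genes 7 of 22 rose and 4 fell (31.8% and 18.2%, against 13.2% and 14.3% of all genes), again in a list chosen with earlier results known. CD44, the hyaluronan receptor, read 8539, 8866, 8857 and 8764 in untreated and 5305, 5528, 4501 and 4745 in cobomarsen arrays (1.75-fold lower, limma adjusted p = 4.98e-14, log2 change -0.81 ± 0.07). The groups were apart, and all 9 of its other tested probe sets were called lower. The integrin genes ITGA4 and ITGB1, the chains of VLA-4, rose from 175 ± 17.9 to 289.6 ± 11.4 (limma adjusted p = 3.70e-07, log2 change 0.68 ± 0.10) and from 3683 ± 174 to 5529 ± 315 (limma adjusted p = 3.16e-08, log2 change 0.58 ± 0.08), while ITGB7, which pairs with ITGA4 in gut homing, fell from 901 ± 55.2 to 525 ± 63.97 (limma adjusted p = 1.77e-05, log2 change -0.77 ± 0.14). SELPLG, the scaffold of selectin ligands, rose by 0.65 ± 0.10 and S1PR1, the receptor for lymph node exit, by 0.71 ± 0.16. CD9, a tetraspanin, fell to background, from 199 ± 34.6 to 31.9 ± 34.6 (limma adjusted p = 7.21e-07).

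The other large falls came from varied families. UNC5D, a netrin receptor, read 633, 419, 629 and 607 untreated and 118, 10.9, 15.96 and 108 with cobomarsen (limma adjusted p = 1.95e-08). TIMP1, an inhibitor of metalloproteinases, read 2257, 1496, 1935 and 1862 and 371, 381, 452 and 406 (4.51-fold lower, limma adjusted p = 1.51e-25, log2 change -2.17 ± 0.09), SERPINB1, an inhibitor of neutrophil proteases, fell from 7128 ± 330.0 to 1832 ± 135 (limma adjusted p = 5.00e-27, log2 change -1.95 ± 0.08), and TFPI2, another protease inhibitor, fell from 820.2 ± 80.5 to 136 ± 42.9 (limma adjusted p = 5.51e-18, log2 change -2.51 ± 0.16). These 3 protease inhibitors stand among the 20 largest falls. PPP1R14C, an inhibitor of protein phosphatase 1, fell from 725 ± 136 to 90.6 ± 42.1 (limma adjusted p = 5.99e-10, log2 change -2.88 ± 0.33), and NEK6, a mitotic kinase, from 464 ± 66.3 to 91.5 ± 7.76 (limma adjusted p = 8.04e-12, log2 change -2.15 ± 0.21). TAGAP, a GTPase activator of T cell activation, fell from 1527 ± 149.9 to 357 ± 13.1 (limma adjusted p = 3.25e-11, log2 change -2.04 ± 0.21), RGS16, a brake on G protein signalling, from 2735 ± 111 to 754 ± 53.4 (limma adjusted p = 3.60e-20, log2 change -1.84 ± 0.11), and DENND5A, an exchange factor for Rab GTPases, from 913 ± 116 to 249 ± 45.2 (limma adjusted p = 3.15e-18, log2 change -1.82 ± 0.12).

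Interferon-stimulated genes mostly fell or were not called. Of 39 tested 18 fell and 2 rose (46.2% lower, against 14.3%), with a median log2 change of -0.35. IFIT3, which amplifies antiviral signalling, read 544, 542, 469.7 and 484 untreated and 129, 119, 191 and 134 with cobomarsen (3.34-fold lower, limma adjusted p = 7.98e-17, log2 change -1.74 ± 0.12). DDX60, a helicase, read 521, 351.4, 504 and 587 and 127, 132, 172 and 205 (2.90-fold lower, limma adjusted p = 4.50e-08, log2 change -1.53 ± 0.21), and ISG20, an exonuclease, 2274, 2637, 2215 and 1929.9 and 933, 938, 1018 and 886 (2.36-fold lower, limma adjusted p = 1.97e-17, log2 change -1.24 ± 0.08). The groups of arrays were apart in all 3 genes. TRIM22, a restriction factor, fell from 6303 ± 437 to 2852 ± 91.3 (limma adjusted p = 2.22e-14, log2 change -1.14 ± 0.09), IFI44 from 759 ± 97.4 to 352 ± 51.6 (limma adjusted p = 1.51e-09, log2 change -1.08 ± 0.13) and ISG15, a ubiquitin-like modifier, from 11271 ± 907 to 8039 ± 203 (limma adjusted p = 2.57e-05, log2 change -0.48 ± 0.09). IRF7, the master factor of interferon alpha induction, rose from 685 ± 146 to 986 ± 117 (limma adjusted p = 0.00483, log2 change 0.53 ± 0.15), and MX1, OAS2 and IFI6 were not called, at 342 ± 48.7 and 355 ± 47.1, 616 ± 26.0 and 656 ± 55.5, and 1265 ± 235 and 1584 ± 200.3.

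The promoters of these genes are shown because interferon acts on them through the interferon-stimulated response element (ISRE). Windows run from 250 bases before to 50 after the gene's start (RefSeq, GRCh38.p14), each printed 5′ to 3′ along the gene, and capitals mark matches to TTTC, any 2 bases, TTTC, or to the same motif on the other strand (GAAA, any 2 bases, GAAA). IFIT3 lies at chr10:89327747-89328046 (+ strand), DDX60 at chr4:168318703-168319002 (- strand), ISG20 at chr15:88638766-88639065 (+ strand) and IFI6, which was not called, at chr1:27672143-27672442 (- strand).
IFIT3: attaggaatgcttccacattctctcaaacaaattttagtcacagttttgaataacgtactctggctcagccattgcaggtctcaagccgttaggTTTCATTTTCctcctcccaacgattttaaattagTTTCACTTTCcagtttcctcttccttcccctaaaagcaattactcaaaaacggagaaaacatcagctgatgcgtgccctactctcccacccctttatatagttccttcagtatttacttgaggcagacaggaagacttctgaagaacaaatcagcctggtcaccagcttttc
DDX60: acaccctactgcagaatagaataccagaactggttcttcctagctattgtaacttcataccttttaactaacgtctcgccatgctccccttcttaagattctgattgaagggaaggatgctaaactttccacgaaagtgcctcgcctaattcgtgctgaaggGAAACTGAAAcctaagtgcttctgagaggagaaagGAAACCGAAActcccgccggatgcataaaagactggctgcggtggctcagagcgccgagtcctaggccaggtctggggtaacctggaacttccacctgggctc
ISG20: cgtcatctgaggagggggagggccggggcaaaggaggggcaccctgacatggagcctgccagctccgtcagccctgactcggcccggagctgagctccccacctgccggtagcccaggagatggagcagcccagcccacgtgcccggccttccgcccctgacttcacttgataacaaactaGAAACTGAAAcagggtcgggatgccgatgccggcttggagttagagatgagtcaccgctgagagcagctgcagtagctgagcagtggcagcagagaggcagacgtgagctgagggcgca
IFI6: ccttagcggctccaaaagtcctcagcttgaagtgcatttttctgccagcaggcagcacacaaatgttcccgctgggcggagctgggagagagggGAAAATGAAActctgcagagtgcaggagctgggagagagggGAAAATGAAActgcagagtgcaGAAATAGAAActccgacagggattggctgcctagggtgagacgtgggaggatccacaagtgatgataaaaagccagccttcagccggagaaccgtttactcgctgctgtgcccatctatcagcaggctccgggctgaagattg

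Matches begin 156 and 122 bases before the start of IFIT3, 88 and 53 before that of DDX60, 69 before that of ISG20, and 156, 115 and 93 before that of IFI6. Of the 39 interferon-stimulated genes tested 30 had a promoter in the RefSeq table. A match was present in 10 of 13 promoters of genes that fell (76.9%) and in 11 of 17 of genes not called (64.7%), against 282 of 9740 promoters of tested genes (2.90%) and 1255 of 35116 of all promoters (3.57%). A second motif, TTCNNNGAA, the gamma-activated site bound by STAT factors, was present in 5 of the 13 and 5 of the 17, against 6.19% of the promoters of tested genes. It equals its own reverse complement, and it can overlap the first motif. A match is a description of letters and not of binding.

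Genes of antigen presentation went both ways. Of 22 tested in a list that mixes both MHC classes, 8 rose and 4 fell (36.4% and 18.2%, against 13.2% and 14.3% of all genes), so the falls lie near the share of all genes. CIITA, the master activator of MHC class II genes, read 198, 259, 328 and 251 untreated and 663, 640.1, 756 and 823 with cobomarsen, without overlap (2.70-fold, limma adjusted p = 4.28e-09, log2 change 1.43 ± 0.18). Members that rose include HLA-DMB from 2991 ± 296 to 5532 ± 529 (limma adjusted p = 2.80e-08, log2 change 0.88 ± 0.12), HLA-DMA from 7191 ± 681 to 11024 ± 402 (limma adjusted p = 1.90e-10, log2 change 0.62 ± 0.07), CD74, the invariant chain, from 14637 ± 1919 to 22274 ± 1002 (limma adjusted p = 8.11e-08, log2 change 0.61 ± 0.08) and HLA-DOA, a regulator of peptide loading, from 1500.0 ± 114 to 2489 ± 144 (limma adjusted p = 4.09e-08, log2 change 0.73 ± 0.10). The 4 that fell act in class I processing, though counts by class were not tested. NLRC5, the activator of class I genes, fell from 2228 ± 262 to 1354 ± 13.9 (limma adjusted p = 0.00135, log2 change -0.70 ± 0.17), and TAP1, PSMB8 and PSMB9, the peptide pump and subunits of the immunoproteasome, fell by 0.35, 0.34 and 0.33 on the log2 scale (limma adjusted p = 2.04e-05, 4.67e-04 and 4.15e-04). B2M, at 40954 ± 2972 and 41809 ± 1863, was not called. HLA genes share sequence, so a probe set of one may read another.

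NF-kB genes showed 9 falls and 4 rises among 25 tested (36.0% and 16%, against 14.3% and 13.2% of all genes). TRAF1, an adaptor and target of the pathway, read 5976, 5753, 5385 and 5095 in untreated and 2519, 2598, 2634 and 2579.6 in cobomarsen arrays (2.14-fold lower, limma adjusted p = 1.46e-18, log2 change -1.10 ± 0.07). TNFAIP3, the feedback inhibitor A20, fell from 18398 ± 1134 to 13699 ± 559.8 (limma adjusted p = 6.75e-06, log2 change -0.42 ± 0.07), and EBI3, a cytokine subunit, from 6039 ± 540.2 to 3953 ± 245 (limma adjusted p = 1.82e-04, log2 change -0.61 ± 0.13). RELA, a subunit of the factor, rose by 0.50 ± 0.12 and IKBKE, an upstream kinase, by 0.55 ± 0.10, and NFKB1, at 2410.3 ± 159 and 2174 ± 115, was not called. CFLAR, the inhibitor FLIP of death receptors, was called lower on the probe set used (limma adjusted p = 5.18e-04, log2 change -0.27 ± 0.06), but 9 of its other probe sets were called higher, so no direction is given.

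Of 18 listed targets of p53, the stress-induced tumour suppressor, 10 fell and 1 rose (55.6% lower, against 14.3%), with a median log2 change of -0.42. CDKN1A, the cell cycle inhibitor p21, read 5793, 5536, 5767 and 5195 untreated and 3317, 3527, 3163 and 3354 with cobomarsen, without overlap (1.66-fold lower, limma adjusted p = 1.00e-10, log2 change -0.74 ± 0.08). TIGAR, a regulator of glycolysis, fell from 6110.2 ± 321 to 3733 ± 91.2 (limma adjusted p = 1.08e-16, log2 change -0.71 ± 0.05), DDB2, a sensor of DNA damage, from 5244 ± 279.6 to 3906 ± 259 (limma adjusted p = 1.18e-05, log2 change -0.42 ± 0.08), and SESN2, which is also a gene of amino acid stress, from 1012 ± 186 to 582 ± 39.1 (limma adjusted p = 0.00150, log2 change -0.76 ± 0.19). TP53INP1, a listed miR-155 target as well, was the one that rose. MDM2, which degrades p53, and BAX, a trigger of apoptosis, were not called, with log2 changes of 0.10 and -0.08.

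In the BCL2 family BCL2 rose from 1251 ± 38.6 to 2077 ± 98.3 (limma adjusted p = 1.49e-06, log2 change 0.72 ± 0.11), although its 2 other tested probe sets were not called, and BNIP3L, a mitophagy receptor, rose by 0.48 ± 0.13. BCL2L1, or BCL-XL, and BAK1, an effector of apoptosis, fell by 0.43 and 0.42 on the log2 scale (limma adjusted p = 0.00706 and 4.91e-04). Of replication genes 28.1% and of mitotic genes 29.0% were called, about the 27.4% of all genes. Of 32 replication genes 4 rose and 5 fell, and of 31 mitotic genes 5 rose (3 without the first untreated, the third or the fourth cobomarsen array) and 4 fell, with medians of -0.03 and -0.03. MKI67, a marker of dividing cells, stood at 1809.9 ± 187 and 1676 ± 143 and PCNA, the replication clamp, at 12691 ± 568 and 11861 ± 481, and neither was called. CDKN2D, a cell cycle inhibitor, fell from 288 ± 59.8 to 140.0 ± 8.36 (limma adjusted p = 2.70e-05, log2 change -0.94 ± 0.18), and WEE1, also a listed target of miR-155, had the largest rise among mitotic genes.

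The integrated stress and unfolded protein responses adjust protein synthesis and folding. Of 32 of their genes 14 fell and 1 rose (43.8% lower, against 14.3%). ASNS, the asparagine synthetase, read 9017, 9784, 9330.4 and 9769 untreated and 5264, 5229, 5825 and 5719 with cobomarsen (1.72-fold lower, limma adjusted p = 3.77e-10, log2 change -0.78 ± 0.09). TRIB3, a stress pseudokinase, fell from 4114 ± 933 to 2579 ± 74.1 (limma adjusted p = 1.13e-07, log2 change -0.65 ± 0.09), XBP1, the splicing target of the stress sensor, from 2417 ± 324 to 1421 ± 95.5 (limma adjusted p = 1.71e-08, log2 change -0.75 ± 0.10), and HSPA5, the chaperone BiP, from 14621 ± 599 to 11179.6 ± 849 (limma adjusted p = 1.47e-05, log2 change -0.39 ± 0.07). ERN1, the sensor that splices XBP1, rose from 220.4 ± 24.9 to 369 ± 27.3 (limma adjusted p = 1.78e-04, log2 change 0.71 ± 0.15), but its 2 other tested probe sets were not called. The sets of 4 arrays were apart in ASNS, TRIB3, XBP1, HSPA5 and ERN1.

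Lysosomal genes rose in 12 of 28 cases (42.9%, against 13.2%) and fell in 5. ATP6V1C1, a subunit of the proton pump, rose from 1054 ± 60.0 to 2165 ± 38.9 (limma adjusted p = 4.06e-15, log2 change 1.03 ± 0.08), and LAMP1, LAMP2 and CTSB, membrane proteins and a protease of lysosomes, by 0.67 ± 0.08, 0.59 ± 0.11 and 0.64 ± 0.10. TFEB, the master regulator of these genes, fell from 539 ± 77.0 to 304 ± 30.7 (limma adjusted p = 2.77e-07, log2 change -0.79 ± 0.12). HMGCS1, an early enzyme of cholesterol synthesis, rose from 2334 ± 77.5 to 4638 ± 233 (limma adjusted p = 1.65e-13, log2 change 0.98 ± 0.09) and INSIG1, which restrains that pathway, from 2521 ± 359 to 4409 ± 163 (limma adjusted p = 8.58e-09, log2 change 0.81 ± 0.10), while SQLE, FDPS and FASN were not called, with log2 changes of -0.02, -0.02 and -0.01. HDAC4, a histone deacetylase, rose from 235 ± 40.4 to 608 ± 152 (limma adjusted p = 1.81e-07, log2 change 1.30 ± 0.19), and EED, a core subunit of Polycomb repressive complex 2, fell from 9623 ± 416 to 6355 ± 231 (limma adjusted p = 7.21e-11, log2 change -0.60 ± 0.06).

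Ribosomal protein genes gave no calls, and energy genes a few. Of 20 ribosomal protein genes 0 were called in limma and 0 had an unadjusted p under 0.05, with a median log2 change of -0.02. Among subunits of oxidative phosphorylation 2 of 27 rose and 4 fell (22.2%, against 27.4%). In the hypoxia and glycolysis list 7 of 28 rose and 3 fell (25% and 10.7%, against 13.2% and 14.3% of all genes), but without the second cobomarsen or the fourth untreated array 4 or 3 rose. EGLN1, an oxygen sensor, rose from 1707 ± 63.5 to 3191 ± 412 (limma adjusted p = 7.34e-08, log2 change 0.89 ± 0.12), and SLC2A3, a glucose transporter, fell from 2539 ± 459 to 1489 ± 164 (limma adjusted p = 8.59e-04, log2 change -0.75 ± 0.18). GAPDH, at 37378 ± 3582 and 36829.8 ± 3135, and ACTB, at 54552 ± 5853 and 55902 ± 4995, were not called, whereas GUSB, a lysosomal enzyme that serves as a reference gene, rose from 2042 ± 129 to 3020.1 ± 123 (limma adjusted p = 8.06e-09, log2 change 0.56 ± 0.07). Of 10 housekeeping and control genes tested 2 rose and 2 fell (40% called, against 27.4% of all genes). HPRT1 was among those that fell, with a log2 change of -0.23.

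**Figure D4:**
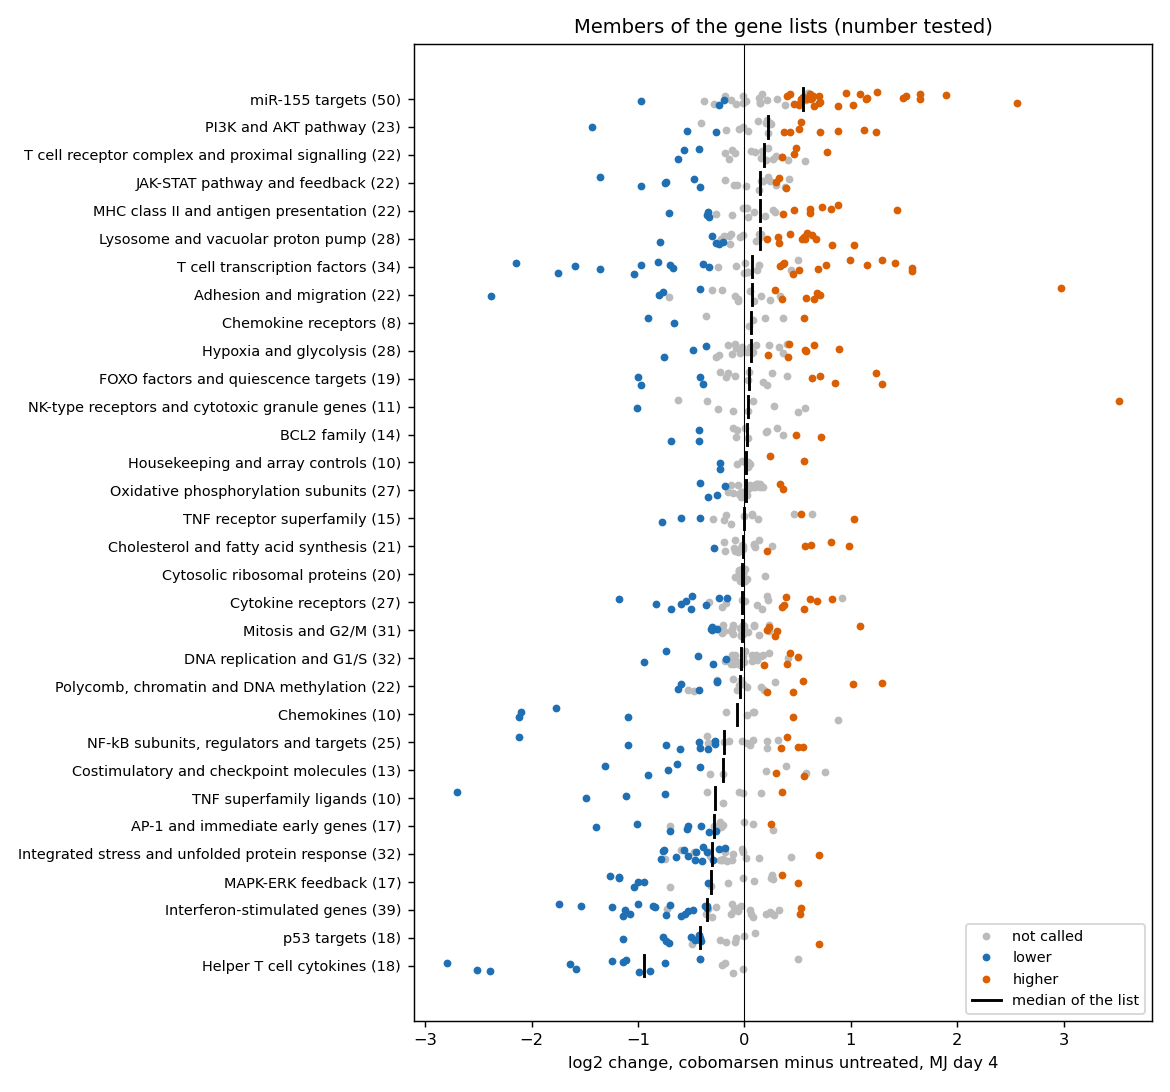
Log2 change, cobomarsen minus untreated, of each tested member of 32 gene lists in MJ at day 4, ordered by the median of the list (black bar), with the number tested in brackets. Orange points rose, blue points fell and grey points were not called. The miR-155 targets have the highest median, 0.55, and the helper T cell cytokines the lowest, -0.94. The vertical spread within a list has no meaning.

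At day 8 MJ showed much the same changes. Of 1572 genes that rose at day 4 and were tested on both days 1215 rose at day 8 (77.3% of the day 4 list and 68.0% of the day 8 list), and of 1703 that fell 1322 fell at day 8 (77.6% and 59.8%). Among all genes tested at day 8, 15.2% rose and 18.6% fell. The size of the effect differed between the days for 156 of 11929 genes (1.31%), of which 113 lay above 0 (day 4 higher) and 43 below. The arrays of the 2 days are separate. Without any 1 array the count was 60 to 131, lowest without the third cobomarsen array of day 4. For several of the named genes the log2 fall was larger at day 8. Each log2 change is set against the untreated arrays of its own day, which can differ between days. IFNG had a log2 change of -2.79 ± 0.22 at day 4 and -4.31 ± 0.22 at day 8 (difference 1.52 ± 0.31, limma adjusted p = 0.00439, or 0.228 with 1 added to the signal in place of 16). SERPINB1 had changes of -1.95 ± 0.08 and -2.42 ± 0.08 (difference 0.47 ± 0.11, limma adjusted p = 0.0137), ISG20 of -1.24 ± 0.08 and -1.87 ± 0.08 (difference 0.63 ± 0.12, limma adjusted p = 0.00131), and TRBC1 of -0.97 ± 0.09 and -2.05 ± 0.09 (difference 1.08 ± 0.12, limma adjusted p = 9.99e-08). NEK6 read 765 ± 67.5 untreated and 43.0 ± 33.5 with cobomarsen at day 8, and GFI1 266 ± 20.2 and 19.8 ± 8.22, so both reached background there (limma adjusted p of the day 8 change = 1.45e-21 and 1.06e-23). A difference between the days is not given for either gene.

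The log2 change of some rises was also larger at day 8. TSC22D1 had log2 changes of 2.41 ± 0.10 at day 4 and 3.95 ± 0.10 at day 8 (difference -1.54 ± 0.14, limma adjusted p = 6.05e-11), and ENPP2 of 2.97 ± 0.09 and 3.81 ± 0.09 (difference -0.84 ± 0.12, limma adjusted p = 1.84e-05). ERN1 had changes of 0.71 ± 0.15 and 1.65 ± 0.15 (difference -0.94 ± 0.21, limma adjusted p = 0.0109). Other genes went another way at day 8. IL3 fell at day 4, whereas at day 8 it stood at 123 ± 18.4 untreated and 204 ± 52.7 with cobomarsen (difference -1.78 ± 0.39, limma adjusted p = 0.00910), a difference lost with 1 in place of 16 added before the logarithm (limma adjusted p = 0.534). ITGAE, the integrin chain CD103 that binds E-cadherin, rose from 2158 ± 44.5 to 2772 ± 51.9 at day 4 (limma adjusted p = 2.37e-06, log2 change 0.36 ± 0.06) and fell at day 8, from 2655 ± 90.8 to 2167 ± 113 (difference 0.65 ± 0.08, limma adjusted p = 6.91e-07). Among mitotic genes 6 of 31 and among replication genes 5 of 32 differed between days, all 11 above 0, against 0.947% of all genes. With the opposite sign 0 were called and 0 had an unadjusted p under 0.05 in limma. BUB1B, a spindle checkpoint kinase, had log2 changes of -0.25 ± 0.06 and -0.72 ± 0.06 (difference 0.47 ± 0.08, limma adjusted p = 7.30e-04), and GINS2, a helicase subunit, of -0.03 ± 0.08 and -0.56 ± 0.08 (difference 0.53 ± 0.11, limma adjusted p = 0.00334). At day 8 both fell. In these lists 16 of 32 replication and 24 of 31 mitotic genes fell at day 8 (50% and 77.4%, against 18.6% of all genes).

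HuT102 and MyLa were also measured at day 4. In HuT102, which also carries HTLV-1, 566 of 1449 genes that rose in MJ rose (39.1% of the MJ list and 50.3% of the HuT102 list) and 589 of 1659 that fell also fell (35.5% and 39.8%), while 63 and 80 were called the opposite way. Of all genes tested in HuT102, 10.1% rose and 13.0% fell. In MyLa 600 of 1457 rose (41.2% and 40.8%) and 471 of 1615 fell (29.2% and 33.6%), and 76 and 119 were opposite, where 13.4% and 12.9% of all genes rose and fell. These comparisons share no arrays. Serial numbers in the array titles lie in a lower range for MJ and HuT102 and in a higher range for MyLa and HuT78. Their meaning is unstated, so in the differences from MyLa the line and the range cannot be told apart. The effects of MJ and HuT102 differed for 1501 of 11898 genes (12.6%), with 793 above 0 (6.66%, MJ higher) and 708 below (5.95%), and those of MJ and MyLa for 2026 of 11729 (17.3%), with 929 above (7.92%) and 1097 below (9.35%). Called in all 3 lines at day 4 were 342 rises and 219 falls among 10028 genes, which is 24.8% and 13.8% of the rises and falls in MJ.

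**Figure D5:**
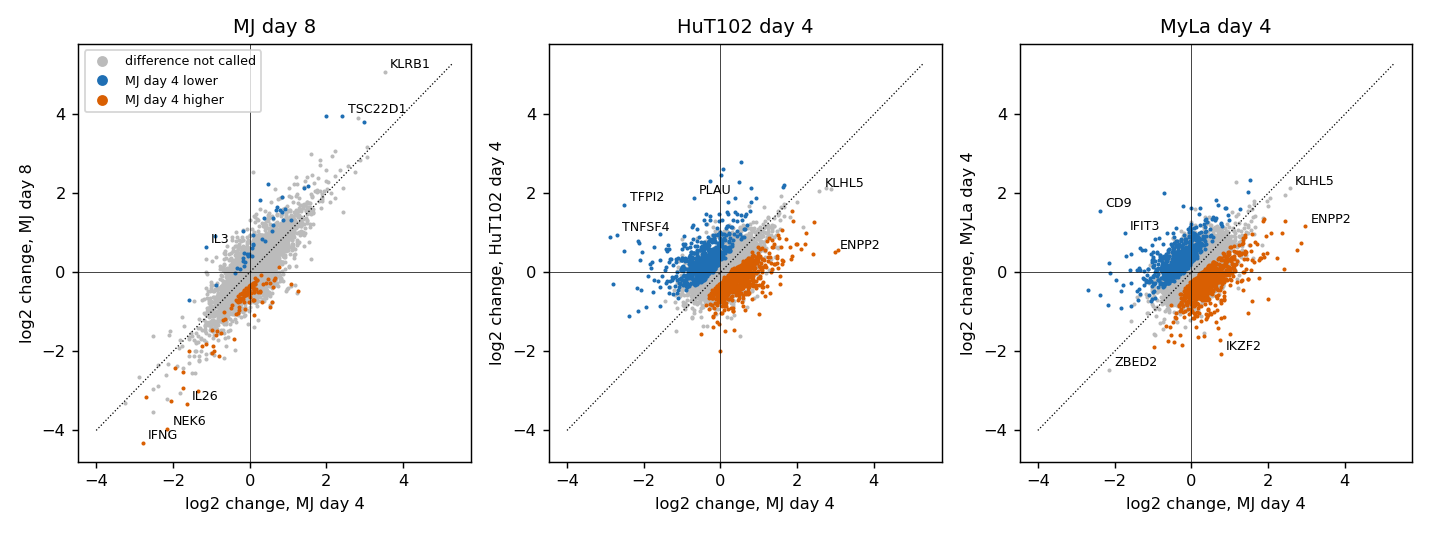
Log2 change in MJ at day 4 (horizontal axis) against that in MJ at day 8, HuT102 at day 4 and MyLa at day 4 (vertical axes), 1 point for each gene tested in both. Orange and blue mark genes whose effect was called higher or lower in MJ at day 4 than in the other comparison; in all 156 genes were called different from MJ at day 8, 1501 from HuT102 and 2026 from MyLa. The dotted line marks equal change.

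Several of the largest falls in MJ went the other way, or were not called, in HuT102. TNFSF4 rose there, from 4894 ± 146 to 9519.5 ± 530.2 (log2 change 0.96 ± 0.08, against -2.70 ± 0.08 in MJ, difference -3.66 ± 0.11, limma adjusted p = 5.81e-32), and so did TFPI2, from 397 ± 58.1 to 1333 ± 103 (difference -4.22 ± 0.23, limma adjusted p = 4.73e-20), and CCL22, from 3903 ± 528 to 6570.2 ± 1264 (difference -2.86 ± 0.40, limma adjusted p = 3.36e-07). CCL1 stood at 5917 ± 494 and 7378 ± 649.6 in HuT102 (difference -2.41 ± 0.19, limma adjusted p = 3.73e-14). CD44 fell in MJ and rose in HuT102, by 0.44 ± 0.07 (difference -1.24 ± 0.10, limma adjusted p = 1.61e-14), and in MyLa, by 0.43 ± 0.07 (difference -1.23 ± 0.10, limma adjusted p = 2.60e-14). IFNG was bright in untreated HuT102, at 4796 ± 369, and stood at 3889 ± 337 with cobomarsen (log2 change -0.30 ± 0.22, difference -2.49 ± 0.31, limma adjusted p = 3.66e-08). In MyLa IFNG was at background in both groups.

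In interferon-stimulated genes the effect was lower in MJ than in HuT102 for 9 of 43 listed genes and lower than in MyLa for 11 of 36, against 5.95% and 9.35% of all genes, and it was higher for 2 and 0 (in limma, with 1 higher than in MyLa at an unadjusted p under 0.05). IFIT3 stood at 7619.6 ± 569.8 and 6646 ± 364 in HuT102 and rose in MyLa from 795 ± 101.9 to 1582 ± 105 (difference -1.54 ± 0.17, limma adjusted p = 1.73e-09 from HuT102, and -2.72 ± 0.17, limma adjusted p = 1.17e-17, from MyLa). NF-kB genes lay lower in MJ than in HuT102 for 14 of 26 and than in MyLa for 8 of 25, against the same 5.95% and 9.35%. Above MyLa lay 3 of them, against 7.92% of all genes. TNFAIP3 fell in MJ and rose in HuT102 by 0.38 ± 0.07 (difference -0.80 ± 0.10, limma adjusted p = 5.87e-08). Genes of the stress responses lay lower in MJ than in HuT102 and MyLa for 15 and 11 of 32, again against 5.95% and 9.35%.

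Other groups had members higher in MJ. Among cholesterol and fatty acid genes 12 of 21 lay above HuT102 and 11 of 21 above MyLa, against 6.66% and 7.92% of all genes. In MJ most were not called, whereas SCD, the stearoyl desaturase, fell in HuT102 from 4812 ± 91.2 to 2463 ± 153 (difference 1.06 ± 0.16, limma adjusted p = 1.16e-06), and DHCR7, the last enzyme of cholesterol synthesis, from 2392 ± 228 to 994 ± 99.6 (difference 1.16 ± 0.15, limma adjusted p = 7.47e-08). Mitotic genes lay above HuT102 in 16 of 31 cases but above MyLa in 3, near the 7.92% of all genes, with a median difference of -0.0083. Replication genes lay above HuT102 in 7 of 32 cases and below MyLa in 8, against 6.66% and 9.35% of all genes. ENPP2 rose in all 3 lines but most in MJ, with 2.97 ± 0.09 against 0.50 ± 0.09 in HuT102 (difference 2.47 ± 0.12, limma adjusted p = 6.09e-22) and 1.16 ± 0.09 in MyLa (difference 1.81 ± 0.12, limma adjusted p = 1.47e-16). TSC22D1 was not called in MyLa, at 1500.3 ± 49.3 and 1593 ± 94.5 (difference 2.33 ± 0.14, limma adjusted p = 2.38e-18). IKZF2 fell to background in MyLa, from 220.1 ± 20.4 to 43.2 ± 18.3, whereas it rose in MJ (limma adjusted p in MyLa = 6.70e-11). STAT5B fell in MyLa, with a log2 change of -0.58 ± 0.10 (difference 0.98 ± 0.14, limma adjusted p = 3.58e-07), on a probe set whose rise in MJ the other tested ones did not share by call.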

How the data were processed

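Each of 56 samples was read on 1 Affymetrix array, and the 8 from MJ at day 4 made the main comparison. The deposited values are signal intensities on a linear scale that the authors made with MAS5, per the submitters' processing notes, and each array's mean trimmed by 2% lay near 500.1. Per the labels' protocols cells grew in 6-well plates and RNA was isolated with an RNeasy kit. Of 54675 probe sets 62 were controls, 41091 had 1 gene symbol in GEO's platform annotation, 1801 several and 11721 none, so 19775 genes were named. Each gene was given its probe set of highest mean log2(signal + 16) over all arrays. Genes were tested when that mean in the groups compared reached log2(74.0 + 16), where 74.0 is the median of all signals.

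The log2 values were computed from the deposited signals after adding 16. Groups were compared in limma 3.58.1 (R 4.3.3), with group means over all 56 arrays, a variance trend, two-sided tests and Benjamini-Hochberg adjustment over all genes tested, at a threshold of 0.05. The differences from MJ at day 8 and from HuT102 and MyLa at day 4 were contrasts in that same fit. The host transcript, whose probe set has several symbols, was compared by a two-sided exact permutation test. On simulated data with 100 genes seeded at each size among 11985, 56% of changes of log2 0.5 and 85% of log2 1 were recovered, 0 with the wrong sign, and 10 unchanged genes were called. The number of arrays limits the precision. Tables were handled in Python 3.11.15 with numpy 2.4.6, pandas 2.3.3 and scipy 1.17.1, and plots were drawn with matplotlib 3.10.9. The miRNA and promoter sequences are those of RefSeq (GRCh38.p14).

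Named genes were the 20 largest rises and falls without overlap between the groups, all listed miR-155 targets, up to 8 called members of each other list, members that were measured and not called, the 8 largest differences from each other comparison in each direction, and cell type markers. BACH2, CFLAR, CSF1, DDB2, GATA3, HSPA5, IKZF1, IKZF3, IL16, IL21R, IRF7, ISG15, ITGAE, JAK1, NR4A3, PRDM1, PSMB8, PSMB9, TAP1, TGFBR1, TGFBR3 and TWIST1 fall outside this rule and were chosen after their values were seen, as were differences beyond the 8 largest. The members and lists were chosen with earlier results of these data known. Alternatives were other added values, filters, array sets, normalization, probe set choices, no variance trend, and the omission of 1 array at a time.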

Additional observations from a re-analysis of the deposited data

Results flagged for a closer look

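In 30 of 396 groups of 4 arrays, over the 198 genes named, 1 array stood apart from the other 3 by Dixon's criterion (a gap over 0.829 of the range on the log2 scale). Chance flags about 1 group in 20. The signal of 1 untreated array was high for BCL6 (4431 against 3406 to 3499), CCL4 (2537 against 1902 to 1964), CCR7 (17681 against 15539 to 15730.1), LAMP2 (1859.9 against 1702 to 1720.4) and SCD (4899 against 4279 to 4305). An untreated array was also high for SPRED2 (982 against 727 to 759.8), TRIB3 (5508 against 3570.0 to 3776) and TRIM22 (6958 against 6066 to 6116). The signal of 1 untreated array was low for MDM2 (1261 against 1628 to 1710.5), MYO1F (8.72 against 119 to 141), NFKB1 (2172 against 2485 to 2496), SESN2 (734 against 1097 to 1115) and UNC5D (419 against 607 to 633). The signal of 1 cobomarsen array was high for EED (6699.6 against 6224 to 6266), FASN (2085 against 1900.4 to 1929.9), IRF7 (1160.4 against 917 to 941), RHEB (9327 against 7240.2 to 7341) and SDCBP (5269 against 4928 to 4958). A cobomarsen array was also high for SESN2 (641 against 559 to 567), SLC2A3 (1734 against 1397 to 1419) and TRIM22 (2989 against 2798 to 2813). The signal of 1 cobomarsen array was low for BCL2L1 (4552 against 5465 to 5644), CTSB (3262 against 3404 to 3409), ID1 (1735 against 1955 to 1986), IFI6 (1285 against 1648 to 1708) and MYB (19793 against 20900.5 to 21074). A cobomarsen array was also low for RFK (2941 against 3569 to 3713), S1PR1 (1752 against 2250.2 to 2338), SQLE (6891 against 8486 to 8629) and TAB2 (3377 against 3777 to 3850.2). MYO1F and UNC5D are among the 20 largest changes, and both remained called without any 1 array.

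The effect in MJ at day 4 differed from another day or line for the genes below by a test of the difference itself in limma, all at an adjusted p under 0.05. Values are day 4 MJ minus the other log2 change, with the standard error. Against MJ at day 8 the genes were BUB1B (0.47 ± 0.08), ENPP2 (-0.84 ± 0.12), ERN1 (-0.94 ± 0.21), GINS2 (0.53 ± 0.11), IFNG (1.52 ± 0.31), IL3 (-1.78 ± 0.39), ISG20 (0.63 ± 0.12), ITGAE (0.65 ± 0.08), SERPINB1 (0.47 ± 0.11), TRBC1 (1.08 ± 0.12) and TSC22D1 (-1.54 ± 0.14). Against HuT102 they were CARHSP1 (0.59 ± 0.16), CCL1 (-2.41 ± 0.19), CCL22 (-2.86 ± 0.40), CD44 (-1.24 ± 0.10), DHCR7 (1.16 ± 0.15), ENPP2 (2.47 ± 0.12), IFIT3 (-1.54 ± 0.17), IFNG (-2.49 ± 0.31), INPP5D (-0.61 ± 0.12), PICALM (-0.57 ± 0.15), SCD (1.06 ± 0.16), TFPI2 (-4.22 ± 0.23), TNFAIP3 (-0.80 ± 0.10) and TNFSF4 (-3.66 ± 0.11). Against MyLa they were CD44 (-1.23 ± 0.10), ENPP2 (1.81 ± 0.12), IFIT3 (-2.72 ± 0.17), STAT5B (0.98 ± 0.14), TP53INP1 (1.27 ± 0.17) and TSC22D1 (2.33 ± 0.14). For ERN1, INPP5D, STAT5B and TSC22D1 the other tested probe sets were not called in MJ at day 4. No cause was tested for any of the differences.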

How the results depend on the processing

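The count of 3288 called genes ran from 2818 to 4345 over the other settings with 1 probe set a gene, and from 2860 to 3054 without any 1 array, with 1358 to 1523 higher, 1465 to 1542 lower and 352 to 384 at least 2-fold. With every probe set on its own 5365 probe sets were called, 2834 of them higher and 654 at least 2-fold. In place of 361, 233 genes were at least 2-fold with 64 added before the logarithm and 172 with the filter at the 75th percentile. Among the 172 called genes described, 5 lost their call under some setting, and on the probe set used none turned direction. Other probe sets of CFLAR and SMAD2 were called the opposite way, so for these the direction depends on the probe set. With 1 added before the logarithm these were SMAD2, IL3, IKZF2 and SOCS3 (limma adjusted p = 0.0523, 0.152, 0.235 and 0.0570), and IFNGR1 lost its call without the second cobomarsen or the fourth untreated array (limma adjusted p = 0.0940 and 0.116).

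The difference from MJ at day 8, 156 genes, was the count that moved most. It was 421 (252 above 0 and 169 below) in a fit of the 16 MJ arrays, and 76 lay below 0 with 64 added. Without 1 array it ran from 60 to 131 (42 to 97 above and 18 to 37 below). It was 60, 100 and 75 without the third or the fourth cobomarsen or the first untreated array of day 4, and 99, 92 and 81 without the first, the second or the third untreated array of day 8. It was 99 without the second cobomarsen array of day 8, 3 genes more without the first, and 85 without the third. Differences ran from 1295 to 1430 from HuT102 and 1750 to 2100 from MyLa without 1 array. Of 31 named differences only IFNG and IL3 against day 8 were lost, with 1 added.

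Of 1024 counts of list members called, 923 stayed within 1.5 times the value given and 101 did not. The stress response list had 23 members lower, against 14, in a fit of the 8 or the 16 MJ arrays, helper T cell cytokines 7 lower, against 12, with the filter at the 75th percentile, and cholesterol and fatty acid genes 2 or 3 higher, against 5, without 1 array. Over all lists 260 to 282 members were called without 1 array, against 295. The host transcript's log2 difference ran from -0.42 to -0.31 without 1 array, where the smallest exact p the design allows is 0.0571. No paired analysis was possible because the labels give the groups no shared replicate numbers. The serial numbers in the titles, of unstated meaning, differ for every array and were not used to pair them.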

Other observations

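Some genes whose mean log2 signal lay under the limit for testing read apart in the 2 groups in every array. They are given by their signals because they were chosen after their values were seen. PLD5, a member of the phospholipase D family, read 16.3, 6.32, 1.40 and 20.9 untreated and 145, 191, 91.8 and 160 with cobomarsen. IFI44L, an interferon-induced gene, read 70.3, 79.6, 31.4 and 76.2 untreated and 5.40, 3.43, 3.17 and 22.4 with cobomarsen. CCL20, a chemokine that acts on CCR6, read 59.0, 95.2, 62.7 and 22.5 untreated and 10.9, 8.56, 12.6 and 7.72 with cobomarsen. SESN3, a sestrin and FOXO target, read 47.8, 31.5, 19.0 and 29.7 untreated and 77.9, 107, 108 and 109.7 with cobomarsen. The median of all signals was 74.0, so at least 1 group of each of these genes lay at background.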
